A study of Mus musculus with 23 samples.

Results

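The 10 genes described here code for enzymes that make bile acids from cholesterol and join them to taurine or glycine, together with the hepatocyte receptor that signals to the first of these enzymes. They were taken by symbol from a table of read counts for 27179 genes in mouse liver. The set holds Cyp7a1, Cyp8b1, Cyp7b1, Cyp27a1, Hsd3b7, Akr1d1, Amacr, Slc27a5, Baat and Fgfr4. All 10 were found, and each averaged at least 1 CPM over the mice (counts scaled to the library total after TMM normalisation).

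Bile acids are made in hepatocytes and are the main route by which the body disposes of cholesterol. In the classic pathway the sterol ring is hydroxylated first, by CYP7A1, and CYP8B1 then decides whether cholic acid is formed. In the alternative pathway the side chain is oxidised first, by CYP27A1, and CYP7B1 hydroxylates the ring afterwards. Bile acids that return to the liver lower their own synthesis through the receptor FXR, its target SHP and an intestinal hormone (FGF15 in mice) that acts on hepatocytes through FGFR4 and its partner beta-Klotho.

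Liver RNA came from 15 female mice in 3 groups. All of them carried Alb-Cre, a recombinase driven by the albumin promoter and so active in hepatocytes, and Trp53 flx/flx, so that the controls too had both Trp53 alleles conditional. The 6 Ctrl mice had wild-type Braf and 1 conditional Icmt allele (Icmt flx/+). The 6 ABpIF/+ mice carried in addition the BrafCA/+ allele, which expresses Braf V600E after recombination, and the 3 ABpIF/F mice carried it with both Icmt alleles conditional (Icmt flx/flx). Icmt codes for the methyltransferase that finishes the processing of RAS and other prenylated proteins. The genotype labels of the mutant mice read BRAF +/+, while the design text of the series gives BrafCA/+, and the latter is used here. Ages are not in the labels, the tissue was free of visible tumours, and ABpIF/F is represented by 3 mice. Strain labels nearly coincide with genotype. For 5 Ctrl mice the label describes a B6 line with Icmt, Trp53, wild-type Braf and albumin-Cre alleles. Ctrl mouse BG3 and all 9 mutants carry that of a cross of such a line with a B6 line holding Trp53, Braf and Icmt alleles, so that strain label and the Ctrl comparisons can hardly be told apart. With the strain label as a term in a fit, the mutants are in effect set against BG3 alone. The 5 other Ctrl mice then add to the estimated spread and not to the fold change. All values given below with that term carry this limit.

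Libraries held between 24742910 and 32262649 counts per mouse. Icmt itself was measured at 27.8 to 34.7 CPM in Ctrl, 27.8 to 37.4 CPM in ABpIF/+ and 15.2, 15.7 and 16.6 CPM in the 3 ABpIF/F mice, which did not overlap with the other groups (log2 fold change against Ctrl -0.96, adjusted p = 8.51e-06). Reads of the whole gene and of all liver cells are counted, so this level bounds neither the share of recombined hepatocytes nor the protein. Trp53, counted in the same way over its whole gene, had 4.29 to 6.74 CPM in Ctrl, 12.3 to 16.8 CPM in ABpIF/+ and 9.78, 9.82 and 12.4 CPM in ABpIF/F, and it rose in ABpIF/+ (1.37, adjusted p = 1.58e-07) while ABpIF/F fell short of the fold (0.99, adjusted p = 0.000166). Counts of 12 hepatocyte markers summed to 123554 to 158408 CPM in Ctrl, 205981 to 273205 CPM in ABpIF/+ and 160223 to 252877 CPM in ABpIF/F. This sum was higher in every mutant than in every Ctrl mouse, with no marker at 0. Albumin was its largest part, with 76790 to 104893 CPM in Ctrl, 128868 to 186385 CPM in ABpIF/+ and 100260.5 to 181278 CPM in ABpIF/F. By the thresholds given below, 2 of the 12 markers rose and none fell in ABpIF/+, while 2 rose and 4 fell in ABpIF/F. Fewer cells of a type and less RNA per cell cannot be told apart in such bulk samples. Ctrl mouse malpa387 stood apart in its clock genes, as given with the values below. Both mutant groups were compared with the same Ctrl mice, so those comparisons are not independent of each other.

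Most of the set was lower in both mutant groups, but not to the same extent and not with the same members in front. A gene was called where edgeR's quasi-likelihood test over all 27179 genes gave a Benjamini-Hochberg adjusted p under 0.01 and the fold change was at least 2. In ABpIF/+ against Ctrl, 4 of the 10 members fell (Cyp7a1, Cyp8b1, Cyp7b1 and Hsd3b7) and none rose, where 5.35% of all genes and 9.39% of those averaging at least 1 CPM were called lower and 4.69% and 8.21% higher. In ABpIF/F against Ctrl, 7 fell (Cyp7a1, Cyp8b1, Cyp7b1, Cyp27a1, Akr1d1, Slc27a5 and Baat) and none rose, beside 2.38% of all genes and 5.04% of those averaging 1 CPM called lower and 4.55% and 7.53% higher. Between the mutant groups, Cyp27a1 and Akr1d1 were higher and Hsd3b7 was lower in ABpIF/+ than in ABpIF/F, beside 1.76% of all genes called higher and 5.49% called lower (3.72% and 8.50% of those averaging 1 CPM). The median log2 fold change of the 10 members was -0.90, -1.32 and 0.15 in the 3 comparisons, and over the 12316 genes averaging at least 1 CPM it was 0.02, 0.00 and 0.04.

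**Figure D1:**
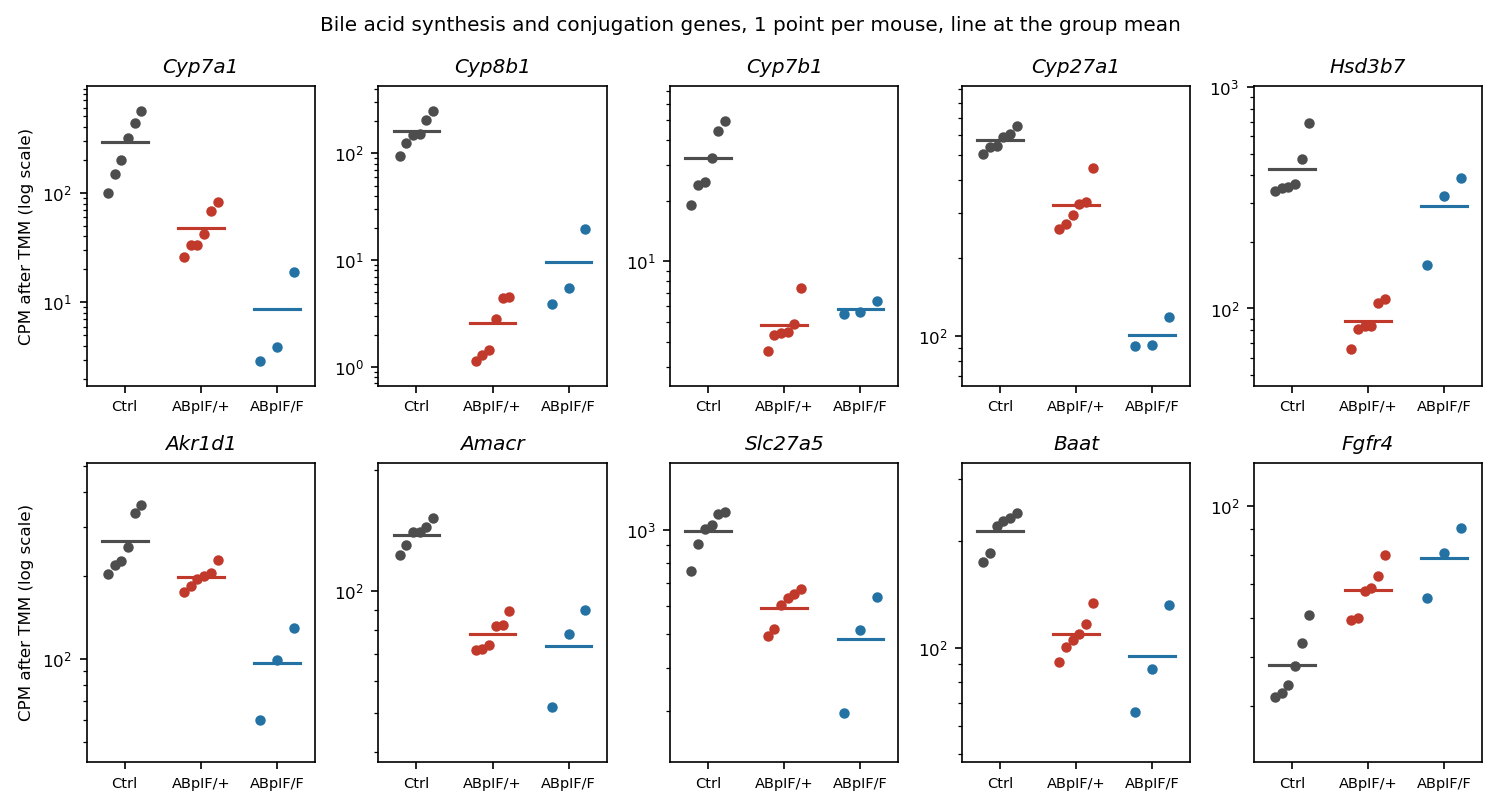
Level of each of the 10 genes in CPM after TMM scaling (y axis, log scale) in Ctrl, ABpIF/+ and ABpIF/F mice (x axis), with 1 point per mouse and a line at the group mean. Cyp8b1 in ABpIF/+ lies between 1.13 and 4.51 CPM against 94.5 to 251 CPM in Ctrl. Fgfr4 is the gene whose mean is higher than in Ctrl in both mutant groups, with ABpIF/+ points that overlap with Ctrl.

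Cyp7a1, the rate-limiting enzyme of the classic pathway (chr4:6265612-6275633, minus strand, GRCm38), was lowest in ABpIF/F. Ctrl mice ranged from 99.3 CPM (malpa387) to 561 CPM with a median of 259.7, and ABpIF/+ mice from 25.9 to 82.6 CPM with a median of 37.9. The 3 ABpIF/F mice had 2.91 CPM (BG38), 3.93 CPM (BG90) and 19.0 CPM (BG183). The 3 groups did not overlap, and each mutant group lay wholly under Ctrl. The log2 fold change was -2.63 (SE 0.57, adjusted p = 0.00344) in ABpIF/+ against Ctrl and -5.09 (SE 0.87, adjusted p = 0.00111) in ABpIF/F against Ctrl. ABpIF/+ exceeded ABpIF/F by 2.47 (SE 0.75, adjusted p = 0.0384), which did not pass the threshold although no mouse of the one group reached the other, and which DESeq2 called (2.45, adjusted p = 0.00141). That difference moved with the ABpIF/F mice, to 3.80 (adjusted p = 0.00631) without BG183 and to 2.05 (adjusted p = 0.157) without BG38. ABpIF/F against Ctrl was -6.43 without BG183 and -4.68 without BG38. With the strain label as a term, the Ctrl comparisons were -2.08 (adjusted p = 0.187) and -4.55 (adjusted p = 0.0154) for Cyp7a1, both short of the threshold. This term leaves BG3 as the single Ctrl mouse against which the mutants are set. A fit of the compared groups alone gave an adjusted p of 0.0111 for Cyp7a1 in ABpIF/F.

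Cyp8b1, the sterol 12-alpha-hydroxylase that leads to cholic acid, had the deepest fall of the set in ABpIF/+. It is a short gene (chr9:121914356-121916305, minus strand). Ctrl mice ranged from 94.5 to 251 CPM (median 151), and ABpIF/+ mice from 1.13 to 4.51 CPM (median 2.13). The ABpIF/F mice had 3.86 CPM (BG90), 5.48 CPM (BG38) and 19.5 CPM (BG183). Both mutant groups lay far under Ctrl and overlapped with each other. Cyp8b1 fell at a log2 fold change of -5.96 (SE 0.55, adjusted p = 2.54e-06) in ABpIF/+ and -4.08 (SE 0.67, adjusted p = 0.000737) in ABpIF/F. ABpIF/+ minus ABpIF/F was -1.87 (SE 0.55, 95% interval -3.07 to -0.68, adjusted p = 0.0319), called by DESeq2 (-1.90, adjusted p = 0.00523), and -0.84 without BG183. In ABpIF/F the value was -3.71 (adjusted p = 0.0139) with the strain label as a term, and -5.12 without BG183.

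RefSeq promoter entries (GRCm38.p6) were given for 5 of the 10 members, and the 250 bases before the start are shown for the 4 of those that were called in a comparison, to set the sequences beside the size of each change. Windows are counted from the RefSeq start, which can differ from the GENCODE gene start given with each member, so that the Hsd3b7 window runs into the GENCODE gene and the Cyp27a1 window ends short of it. The letters searched on both strands were AGGTCA (the half-site of many nuclear receptors, FXR and LXR among them), AAGGTCA (the extended half-site of monomeric receptors such as LRH-1, which contains the former), CACGTG (the E-box bound by the clock activators), TGACTCA (AP-1), GTTAAT (HNF1 half-site), CAAAGTC (core of the HNF4 site) and TATAAA (a core promoter box), the last pair added after the Cyp8b1 window had been read. The Cyp8b1 window (chr9:121916306-121916555, minus strand) holds CAAAGTC 67 to 61 bases and TATAAA 31 to 26 bases before the start, both in capitals. Of 27025 promoters of this length, 3.8% hold the first and 13.0% the second.
Cyp8b1: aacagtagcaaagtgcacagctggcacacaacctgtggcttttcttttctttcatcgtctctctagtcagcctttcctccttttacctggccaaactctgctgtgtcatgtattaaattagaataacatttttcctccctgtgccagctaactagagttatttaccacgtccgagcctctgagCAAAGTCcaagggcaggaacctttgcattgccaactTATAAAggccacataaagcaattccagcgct

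Cyp27a1, the mitochondrial sterol 27-hydroxylase that opens the alternative pathway and also works on the side chain in the classic one (chr1:74713574-74737892, plus strand), fell in ABpIF/F. Ctrl mice ranged from 508 to 647 CPM (median 567) and ABpIF/+ mice from 259 to 446 CPM (median 309.9). The ABpIF/F mice had 91.9 CPM (BG38), 92.1 CPM (BG90) and 118 CPM (BG183). No mouse of any group reached the range of another. For Cyp27a1 the log2 fold change was -2.51 (SE 0.19, adjusted p = 5.62e-09) in ABpIF/F against Ctrl and 1.68 (SE 0.18, adjusted p = 2.63e-06) in ABpIF/+ against ABpIF/F. ABpIF/+ minus Ctrl was -0.83 (SE 0.14, adjusted p = 6.84e-05), which passed on p and not on the fold. The window before its start (chr1:74713285-74713534, plus strand) holds none of the letters searched.
Cyp27a1: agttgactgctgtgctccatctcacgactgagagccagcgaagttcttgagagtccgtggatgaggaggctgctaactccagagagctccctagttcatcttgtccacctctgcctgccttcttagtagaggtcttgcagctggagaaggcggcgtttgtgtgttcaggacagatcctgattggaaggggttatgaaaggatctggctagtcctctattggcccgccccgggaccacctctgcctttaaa

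Cyp7b1, the oxysterol 7-alpha-hydroxylase of the alternative pathway (chr3:18071950-18243338, minus strand), fell in both mutant groups. Ctrl mice ranged from 19.1 to 49.8 CPM (median 28.6), ABpIF/+ mice from 3.58 to 7.39 CPM (median 4.45), and the ABpIF/F mice had 5.50 CPM (BG90), 5.61 CPM (BG183) and 6.34 CPM (BG38). Both mutant groups lay under Ctrl, and the ABpIF/F mice lay inside the ABpIF/+ range through BG55 (7.39 CPM) alone. The other ABpIF/+ mice had at most 4.90 CPM and lay under all ABpIF/F mice. The log2 fold change was -2.74 (SE 0.23, adjusted p = 5.60e-08) in ABpIF/+ and -2.47 (SE 0.30, adjusted p = 1.05e-05) in ABpIF/F. The difference between the mutant groups was -0.27, with a 95% interval from -0.84 to 0.31. The CPM of Cyp8b1 divided by that of Cyp7b1 was 2.52 to 13.2 in Ctrl mice, 0.194 to 1.02 in ABpIF/+ mice, and 0.701 (BG90), 0.865 (BG38) and 3.47 (BG183) in ABpIF/F mice, so that Cyp8b1 was the more reduced of the pair in each ABpIF/+ mouse.

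**Figure D2:**
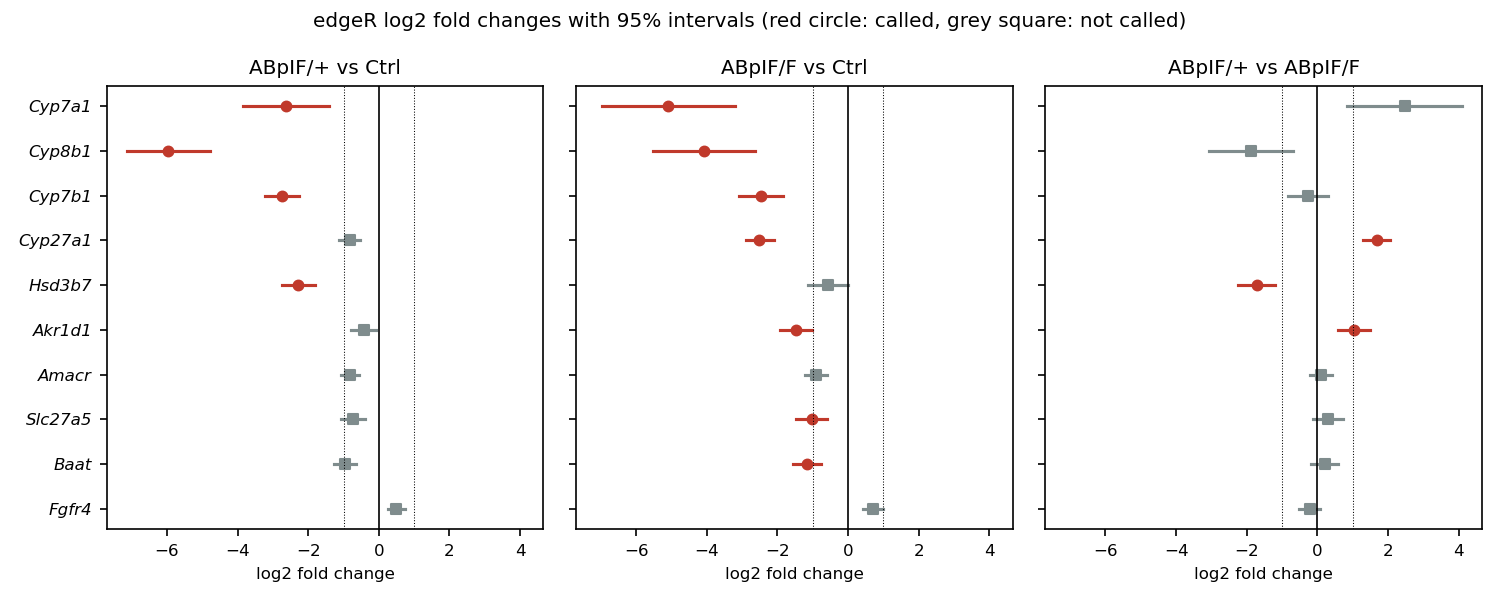
Log2 fold changes (x axis) of the 10 genes (y axis) in the 3 comparisons, with 95% intervals from edgeR's quasi-likelihood fit. Red circles are called (adjusted p under 0.01 and at least 2-fold, dotted lines), grey squares are not. Hsd3b7 is at -2.28 in ABpIF/+ and -0.57 in ABpIF/F against Ctrl, while Cyp27a1 is at -0.83 and -2.51.

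Hsd3b7, the dehydrogenase that acts on the ring after 7-alpha-hydroxylation in both pathways (chr7:127800604-127803802, plus strand), fell in ABpIF/+ and was not called in ABpIF/F. Ctrl mice ranged from 339.5 CPM to 693 CPM (malpa387) with a median of 359.8, and ABpIF/+ mice from 65.3 to 110.5 CPM with a median of 83.2. The ABpIF/F mice had 157 CPM (BG38), 321 CPM (BG90) and 391 CPM (BG183). All ABpIF/+ mice lay under all others, while BG183 lay inside the Ctrl range. The log2 fold change was -2.28 (SE 0.22, adjusted p = 1.88e-07) in ABpIF/+ against Ctrl and -1.72 (SE 0.25, adjusted p = 9.51e-05) in ABpIF/+ against ABpIF/F. ABpIF/F minus Ctrl was -0.57 (SE 0.27, 95% interval -1.13 to -0.01, adjusted p = 0.182). This value was -0.38 without malpa387, -0.27 without BG38 and -0.85 (adjusted p = 0.0605) without BG183. With the clock score described below as a term it was -1.09 (adjusted p = 0.0509), so the size of the Hsd3b7 change in ABpIF/F stayed uncertain. In the GENCODE annotation of GRCm38 its exons lie within a longer same-strand transcript unit (Gm49388) and opposite an unclassified gene (9430064I24Rik), so reads of these could be counted with it or lost to it. The window before its start (chr7:127800359-127800608, plus strand) holds none of the letters searched.
Hsd3b7: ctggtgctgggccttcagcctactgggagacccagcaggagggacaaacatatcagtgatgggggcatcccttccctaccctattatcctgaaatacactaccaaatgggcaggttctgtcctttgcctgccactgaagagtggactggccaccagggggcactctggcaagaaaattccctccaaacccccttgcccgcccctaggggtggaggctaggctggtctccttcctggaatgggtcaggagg

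Akr1d1, the reductase that sets the bent ring shape of bile acids (chr6:37530173-37568815, plus strand), fell in ABpIF/F and was not called in ABpIF/+. Ctrl mice ranged from 202 to 361 CPM (median 239), ABpIF/+ mice from 174 to 227 CPM (median 197), and the ABpIF/F mice had 59.9 CPM (BG38), 98.9 CPM (BG90) and 129.7 CPM (BG183). ABpIF/F lay under both other groups, which overlapped. The log2 fold change was -1.47 (SE 0.22, adjusted p = 4.85e-05) in ABpIF/F against Ctrl, 1.04 (SE 0.22, adjusted p = 0.00162) in ABpIF/+ against ABpIF/F, and -0.43 (SE 0.17, adjusted p = 0.0675) in ABpIF/+ against Ctrl. The difference between the mutant groups sat at the fold threshold and lost its call without BG38 (0.79, adjusted p = 0.0174), without BG55 (0.99) and with library totals unscaled (0.89), and the fall in ABpIF/F was -1.23 (adjusted p = 0.0152) with the strain label as a term. The window before its start (chr6:37529923-37530172, plus strand) holds AGGTCA on the minus strand, read as TGACCT in capitals, at 232 to 227 and at 210 to 205 bases before the start, and 13.8% of all promoters hold these letters on either strand.
Akr1d1: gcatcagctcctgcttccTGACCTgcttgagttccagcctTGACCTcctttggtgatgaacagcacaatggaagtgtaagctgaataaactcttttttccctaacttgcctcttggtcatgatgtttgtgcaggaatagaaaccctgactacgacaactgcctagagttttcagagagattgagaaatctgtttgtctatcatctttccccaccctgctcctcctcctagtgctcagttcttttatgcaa

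Slc27a5, Baat and Amacr were lower in both mutant groups by smaller amounts, and all mutant mice lay under all Ctrl mice in each of the 3. Slc27a5 (chr7:12988346-12998192, minus strand) codes for the ligase that activates bile acids with coenzyme A before conjugation. It had 759 to 1123 CPM in Ctrl, 493 to 672 CPM in ABpIF/+, and 296 (BG38), 514 (BG90) and 638 CPM (BG183) in ABpIF/F. Baat (chr4:49489422-49506557, minus strand) codes for the enzyme that then transfers taurine or glycine. Its levels were 174 to 240.3 CPM in Ctrl, 91.0 to 134 CPM in ABpIF/+, and 65.8 (BG38), 86.9 (BG90) and 132 CPM (BG183) in ABpIF/F. Amacr (chr15:10981756-10996626, plus strand) codes for the racemase that prepares the side chain for peroxisomal shortening. Its levels were 123 to 152 CPM in Ctrl, 71.6 to 89.6 CPM in ABpIF/+, and 51.7 (BG38), 78.5 (BG90) and 89.9 CPM (BG183) in ABpIF/F. In all 3 genes BG38 was the lowest of the ABpIF/F mice and the other pair lay near or inside the ABpIF/+ range.

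The falls of Slc27a5 and Baat in ABpIF/F were called at -1.03 (SE 0.21, adjusted p = 0.000974) and -1.17 (SE 0.19, adjusted p = 1.0e-04), and that of Amacr stayed under the fold at -0.91 (SE 0.15, adjusted p = 0.000171), reaching -1.05 (adjusted p = 0.00415) with the strain label as a term and -1.08 without BG183. Without BG38 the Slc27a5 and Baat values were -0.78 and -0.97, so both calls rest on that mouse, and Slc27a5 also lost its call without Ctrl mice BG3 (-1.0) or malpa458 (-0.99) and with the strain label as a term (-1.20, adjusted p = 0.0131). In ABpIF/+ against Ctrl the values were -0.73 for Slc27a5 (adjusted p = 0.00147), -0.97 for Baat (adjusted p = 2.66e-05) and -0.81 for Amacr (adjusted p = 2.08e-05), past the threshold on p and short of the fold. Baat passed both in ABpIF/+ with library totals unscaled (-1.14), with the strain label as a term (-1.06) and without malpa459, malpa462 or BG40. Between the mutant groups the difference was 0.30 for Slc27a5 (95% interval -0.11 to 0.72) and 0.21 for Baat (-0.17 to 0.58). For Amacr it was 0.10 (-0.21 to 0.41), and -0.06 with library totals unscaled.

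Fgfr4, the hepatocyte receptor for FGF15 (chr13:55152640-55168759, plus strand), was the single member with higher values in the mutants. Ctrl mice ranged from 41.8 CPM to 60.6 CPM (malpa387) with a median of 46.0, ABpIF/+ mice from 59.2 to 79.7 CPM with a median of 68.2, and the ABpIF/F mice had 65.7 CPM (BG38), 80.7 CPM (BG183) and 90.2 CPM (BG90). ABpIF/F lay wholly above Ctrl, and ABpIF/+ overlapped with Ctrl through malpa387. Log2 fold changes were 0.49 (SE 0.12, adjusted p = 0.00285) in ABpIF/+ and 0.71 (SE 0.14, adjusted p = 0.00091) in ABpIF/F, neither reaching the fold. With the strain label as a term, which leaves BG3 as the single Ctrl mouse of that label, the values were 0.35 in ABpIF/+ and 0.56 in ABpIF/F. With the clock score of the next paragraphs as a term, the ABpIF/F value was 0.37 (adjusted p = 0.37).

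Without regard to the fold, 9 of 10 members passed an adjusted p of 0.01 in ABpIF/+ against Ctrl (18.4% of all genes) and 9 in ABpIF/F against Ctrl (10.9%), and 3 did so between the mutant groups (10.9%). The member that did not pass was Akr1d1 in ABpIF/+ and Hsd3b7 in ABpIF/F. Groups did not overlap for 8 members in ABpIF/+ against Ctrl, all lower, while 31.3% of genes averaging at least 1 CPM had groups apart in either direction. In ABpIF/F against Ctrl they did not overlap for 9 members, with Fgfr4 as the higher one (31.6%), and between the mutant groups for 4 (34.2%).

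Per kilobase of exon, Slc27a5 had the highest mean in every group, 405 CPM per kb (SD 55.8, n = 6) in Ctrl, 244 (SD 30.4, n = 6) in ABpIF/+ and 198 (SD 70.9, n = 3) in ABpIF/F. In Ctrl the order by mean was then Cyp27a1, Hsd3b7, Baat, Akr1d1, Cyp8b1, Cyp7a1, Amacr, Cyp7b1 and Fgfr4. Of these neighbours, Slc27a5 and Cyp27a1 had ranges apart, as had Amacr and Cyp7b1, and all others overlapped. In ABpIF/+ the order changed to Slc27a5, Cyp27a1, Akr1d1, Baat, Hsd3b7, Amacr, Fgfr4, Cyp7a1, Cyp7b1 and Cyp8b1, with Cyp8b1 at 1.33 CPM per kb (SD 0.802) against 83.5 (SD 28.9) in Ctrl. In ABpIF/F it was Slc27a5, Hsd3b7, Baat, Cyp27a1, Akr1d1, Amacr, Fgfr4, Cyp8b1, Cyp7b1 and Cyp7a1, where of all neighbours Fgfr4 and Cyp8b1 alone had ranges apart. The sum of the 10 genes was 2683 to 3488 CPM in Ctrl mice, 1330.3 to 1755 CPM in ABpIF/+ mice, and 803 (BG38), 1295 (BG90) and 1623 CPM (BG183) in ABpIF/F mice.

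Members differed in how steady they were within a group. The biological coefficient of variation from edgeR was 61.8% for Cyp7a1 and 53.6% for Cyp8b1, above 98.9% and 98.2% of the genes averaging at least 1 CPM. For the other 8 it lay between 16.0% (Fgfr4) and 26.6% (Hsd3b7), around the 19.2% of the median gene. Among Ctrl mice alone the highest Cyp7a1 level was 5.65 times the lowest, while for Amacr it was 1.24 times and for Cyp27a1 1.27 times.

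Cyp7a1 is under control of the circadian clock, and clock genes differed between these mice. Dbp, a clock output factor that activates Cyp7a1 in the liver, had 95.3 to 141 CPM in 5 Ctrl mice and 3.69 CPM in malpa387, 58.2 to 114 CPM in ABpIF/+ mice, and 32.9 (BG183), 9.67 (BG38) and 0.893 CPM (BG90) in ABpIF/F mice. Arntl (also Bmal1), a core activator that peaks opposite to Dbp, had 16.4 CPM in malpa387 and a Ctrl median of 1.16 CPM, 1.76 to 5.22 CPM in ABpIF/+ and 21.2 to 30.6 CPM in ABpIF/F. Nr1d1, a core repressor, had 69.7 to 114 CPM in Ctrl, 25.9 to 96.5 CPM in ABpIF/+ and 73.7 to 199 CPM in ABpIF/F. The 18 clock genes summed to 474 (malpa387) to 1279.7 CPM in Ctrl, 1114 to 1527 CPM in ABpIF/+ and 382 to 689 CPM in ABpIF/F, none at 0. Of these 18, 5 were called lower and none higher in ABpIF/F against Ctrl, and 4 higher and none lower in ABpIF/+ against Ctrl. Times of death are not in the labels, so clock state and genotype cannot be told apart for ABpIF/F.

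Within Ctrl, malpa387 had the lowest Cyp7a1 (99.3 CPM) and Cyp7b1 (19.1 CPM) and the highest Cyp8b1 (251 CPM), Hsd3b7 (693 CPM) and Fgfr4 (60.6 CPM). Its Cyp27a1, by contrast, was inside the range of the other Ctrl mice. The first principal component of the 18 clock genes served as a clock score. It was -5.82 (BG183), -7.9 (BG38) and -11.17 (BG90) in ABpIF/F, -8.65 in malpa387 and 1.98 to 3.83 in all other mice. A fit with this score therefore leans on malpa387 and on the spread within ABpIF/F, and it cannot separate clock state from genotype. With the score as a term, 4 members stayed called in ABpIF/F against Ctrl, namely Cyp8b1 (-4.24, adjusted p = 0.00648), Cyp27a1 (-2.36, adjusted p = 4.94e-06), Cyp7b1 (-1.88, adjusted p = 0.0045) and Baat (-1.17, adjusted p = 0.00774). Cyp7a1 was then -3.54 (adjusted p = 0.0191), Akr1d1 -1.15 (adjusted p = 0.0217) and Slc27a5 -1.04 (adjusted p = 0.0385). Between the mutant groups Cyp27a1 kept its call (1.5, adjusted p = 0.00784), and Cyp7a1 was 0.59, Hsd3b7 -1.0 (adjusted p = 0.164) and Akr1d1 0.64 (adjusted p = 0.343). All 4 calls in ABpIF/+ against Ctrl stayed, with Cyp7a1 at -2.95, Cyp8b1 at -5.89, Cyp7b1 at -2.86 and Hsd3b7 at -2.09.

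**Figure D3:**
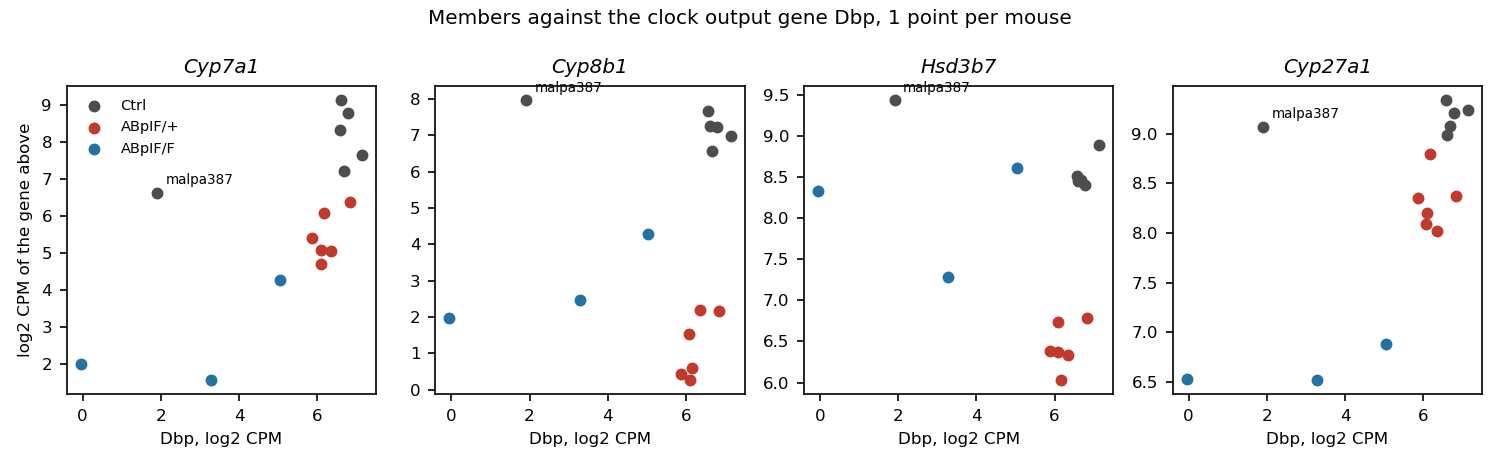
Log2 CPM of Cyp7a1, Cyp8b1, Hsd3b7 and Cyp27a1 (y axes) against log2 CPM of Dbp (x axes), 1 point per mouse, coloured by group. The Ctrl mouse malpa387 lies at a Dbp of 1.91 among the ABpIF/F mice (-0.05 to 5.04). Its Cyp8b1 (7.97) and Hsd3b7 are the highest and its Cyp7a1 the lowest of the Ctrl mice, and its Cyp27a1 lies inside the Ctrl range.

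Markers of liver zones and of other cells moved with the groups as well. Of 12 pericentral hepatocyte markers, genes of the zone in which Cyp7a1 is mainly expressed, 10 fell in ABpIF/+ and 8 in ABpIF/F. Their sum was 9210.1 to 12894 CPM in Ctrl, 2608 to 5553 CPM in ABpIF/+ and 999 to 2679 CPM in ABpIF/F. Of 12 periportal markers 4 rose and 1 fell in ABpIF/+ (sum 10296 to 17897 CPM against 8769 to 11699 CPM in Ctrl), and 2 rose and 4 fell in ABpIF/F (3381 to 6121 CPM). Of 10 cholangiocyte markers 7 rose in ABpIF/F (239.7 to 1204 CPM, highest in BG38, against 51.3 to 89.4 CPM in Ctrl) and 2 rose and 2 fell in ABpIF/+ (55.5 to 177 CPM). Spp1 was the largest part of the sum in ABpIF/F (175 to 1081 CPM, against 29.2 to 60.0 CPM in Ctrl). Krt19 had 2.12 to 4.57 CPM there, against 0.802 to 2.05 CPM in Ctrl. Over the mice, 6 of these 10 markers averaged at least 1 CPM. Of 10 neutrophil markers 9 rose in ABpIF/F (2.97 CPM in BG183, 30.8 CPM in BG90 and 91.5 CPM in BG38, against 0.883 to 2.13 CPM) and 1 in ABpIF/+ (2.62 to 10.1 CPM). No more than 3 of these 10 averaged at least 1 CPM over the mice, so most of these calls lie near the floor. Of 10 stellate cell and fibroblast markers 8 fell in ABpIF/+ (61.8 to 130.0 CPM against 221 to 299 CPM in Ctrl), and 1 rose and 1 fell in ABpIF/F (243 to 394 CPM). Of 10 macrophage and Kupffer cell markers 7 fell in ABpIF/+ (138 to 226 CPM against 321 to 439.8 CPM) and none was called in ABpIF/F (264 to 645 CPM). In ABpIF/+ 3 of 10 lymphocyte markers (1.01 to 3.4 CPM against 4.66 to 7.75 CPM) and 2 of 10 endothelial markers (109.6 to 261 CPM against 255 to 368 CPM) fell as well, while 1 of each list rose in ABpIF/F (5.86 to 15.6 CPM and 279.5 to 400.4 CPM). No lymphocyte marker averaged 1 CPM over the mice. No marker of these lists was at 0 in a whole mutant group, and 1 cholangiocyte and 1 neutrophil marker were at 0 in Ctrl. Of 6 red blood cell markers 1 rose in ABpIF/+ and none was called in ABpIF/F, and of 8 intestinal markers 1 fell in each mutant group. The part of all these markers in the values of the 10 genes was not tested.

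Of 67 other genes of bile acid metabolism, 16 fell and 3 rose in ABpIF/+ against Ctrl, 23 fell and 1 rose in ABpIF/F against Ctrl, and 8 were higher and 3 lower in ABpIF/+ than in ABpIF/F. Among 28 further synthesis and side chain enzymes, 8 fell and 1 rose in ABpIF/+, and 12 fell and none rose in ABpIF/F. Cyp39a1, the 7-alpha-hydroxylase of 24-hydroxycholesterol, was the one that rose, from 35.9 to 67.0 CPM in Ctrl to 159.7 to 224 CPM in ABpIF/+, without overlap (2.00, SE 0.15, adjusted p = 1.33e-09). In ABpIF/F it had 75.2, 76.9 and 85.1 CPM (0.64, adjusted p = 0.0115). Por, the electron donor that CYP7A1, CYP8B1 and CYP7B1 need, had 286 (malpa387) to 896 CPM in Ctrl, 818 to 1626 CPM in ABpIF/+ and 147 to 185 CPM in ABpIF/F. It fell in ABpIF/F by 2.13 on the log2 scale (SE 0.29, adjusted p = 1.93e-05), which was -0.97 (adjusted p = 0.0544) with the clock score as a term, and ABpIF/+ minus Ctrl was 0.59 (adjusted p = 0.0485). The peroxisomal thiolase Acaa1b (-3.29 and -3.83), the peroxisomal transporter Abcd3 (-1.92 and -2.11) and the reductase Akr1c6 (-2.63 and -1.39) fell in both mutant groups. Cyp2c70, which makes the muricholic acids of mice, was not called in any comparison (0.08, interval -0.26 to 0.42, and -0.09, interval -0.51 to 0.33, against Ctrl).

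Of 22 receptors and transcription factors, 1 rose and 1 fell in ABpIF/+, and 1 rose and 2 fell in ABpIF/F. Nr0b2, which codes for SHP, had 15.5 to 41.1 CPM in Ctrl, 8.51 to 17.3 CPM in ABpIF/+ and 22.0 to 30.3 CPM in ABpIF/F. It fell in ABpIF/+ by 1.11 on the log2 scale (SE 0.24, adjusted p = 0.00221), a call lost without Ctrl mice BG3 or malpa458 (-0.96 each), with the groups overlapping, and was at -0.06 (interval -0.67 to 0.55) in ABpIF/F. For Nr0b2, ABpIF/+ minus ABpIF/F was -1.05 (SE 0.28, adjusted p = 0.0155) with ranges apart. That difference did not pass the threshold, and DESeq2 called it (-1.06, adjusted p = 0.00139). Nr1h4, which codes for FXR, was at -0.08 (interval -0.40 to 0.24) in ABpIF/+ and -0.78 (SE 0.20, adjusted p = 0.00649) in ABpIF/F, and -1.20 without BG183. The coactivator Ppargc1a rose in ABpIF/+ (1.43, SE 0.19, adjusted p = 1.23e-05), and in ABpIF/F the nuclear receptors Ppara (-1.66) and Nr1i3 (-1.64) fell and the sphingosine phosphate and bile acid receptor S1pr2 rose (1.28, SE 0.19, adjusted p = 4.17e-05). All 3 calls in ABpIF/F were lost with the strain label as a term (Ppara -0.99, adjusted p = 0.104, Nr1i3 adjusted p = 0.0266, S1pr2 adjusted p = 0.0261) and with the clock score (Ppara -0.67, adjusted p = 0.153, Nr1i3 adjusted p = 0.0188, S1pr2 adjusted p = 0.0247). Values for Nr5a2 (LRH-1) were -0.33 and -0.01, for Hnf4a 0.51 and -0.21, for Nr1h3 (LXR alpha) -0.45 and -0.51, and for Klb (beta-Klotho) 0.50 and -0.03, none of which was called. In ABpIF/+ against Ctrl, Hnf4a (adjusted p = 0.00789) and Nr1h3 (adjusted p = 0.00419) passed on p and not on the fold. Their ranges there were apart from Ctrl, as was that of Klb (adjusted p = 0.0109). Hnf4a was also higher in ABpIF/+ than in ABpIF/F (0.72, adjusted p = 0.00526), again short of the fold. Fgf15 had no read in any of the 15 livers, and Gpbar1 and Slc51a had at most 2 counts in each.

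Of 17 transporters and binding proteins, 7 fell and 1 rose in ABpIF/+, and 9 fell and none rose in ABpIF/F. The canalicular export pump Abcb11 had 589 to 1028 CPM in Ctrl, 81.1 to 159 CPM in ABpIF/+, and 209 (BG38), 311 (BG90) and 487 CPM (BG183) in ABpIF/F, with all 3 groups apart. It fell by 2.81 (SE 0.20, adjusted p = 6.83e-10) and 1.22 (SE 0.24, adjusted p = 0.000934) on the log2 scale, and the mutant groups differed by -1.59 (SE 0.22, adjusted p = 3.49e-05). The Abcb11 call in ABpIF/F was lost without BG38 (-0.97, adjusted p = 0.0112), with the strain label as a term (-1.0, adjusted p = 0.0923) and with the clock score (adjusted p = 0.0119). The uptake carrier Slc10a1 showed another order, with -0.29 (interval -0.71 to 0.12) in ABpIF/+ and -1.30 (SE 0.26, adjusted p = 0.000946) in ABpIF/F, the latter not called without BG38 (-0.98) or BG90 (adjusted p = 0.0107), by strain label (adjusted p = 0.0232) or with the clock score (-0.68, adjusted p = 0.258). Slco1b2 (-3.10 and -2.49), Slco1a1 (-5.15 and -3.77) and the fatty acid and bile acid binding protein Fabp1 (-3.15 and -2.0) fell in both. The Slco1a1 call in ABpIF/F was lost without BG38 (adjusted p = 0.0117) or BG90 (adjusted p = 0.0125), in a fit of the compared groups alone (adjusted p = 0.0233), with the strain label as a term (adjusted p = 0.0293) and with the clock score (-1.38, adjusted p = 0.155). That of Fabp1 was lost without BG90 (adjusted p = 0.0169) and with the clock score (adjusted p = 0.0509), and without BG183 the values were -4.48 for Slco1a1, -2.73 for Fabp1 and -4.56 for Acaa1b. With the clock score as a term, the differences of Abcb11 (-1.37, adjusted p = 0.0551), Akr1c6 (-1.40, adjusted p = 0.029), Por (1.38, adjusted p = 0.0285) and Cyp39a1 (0.79, adjusted p = 0.11) between the mutant groups were not called.

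**Figure D4:**
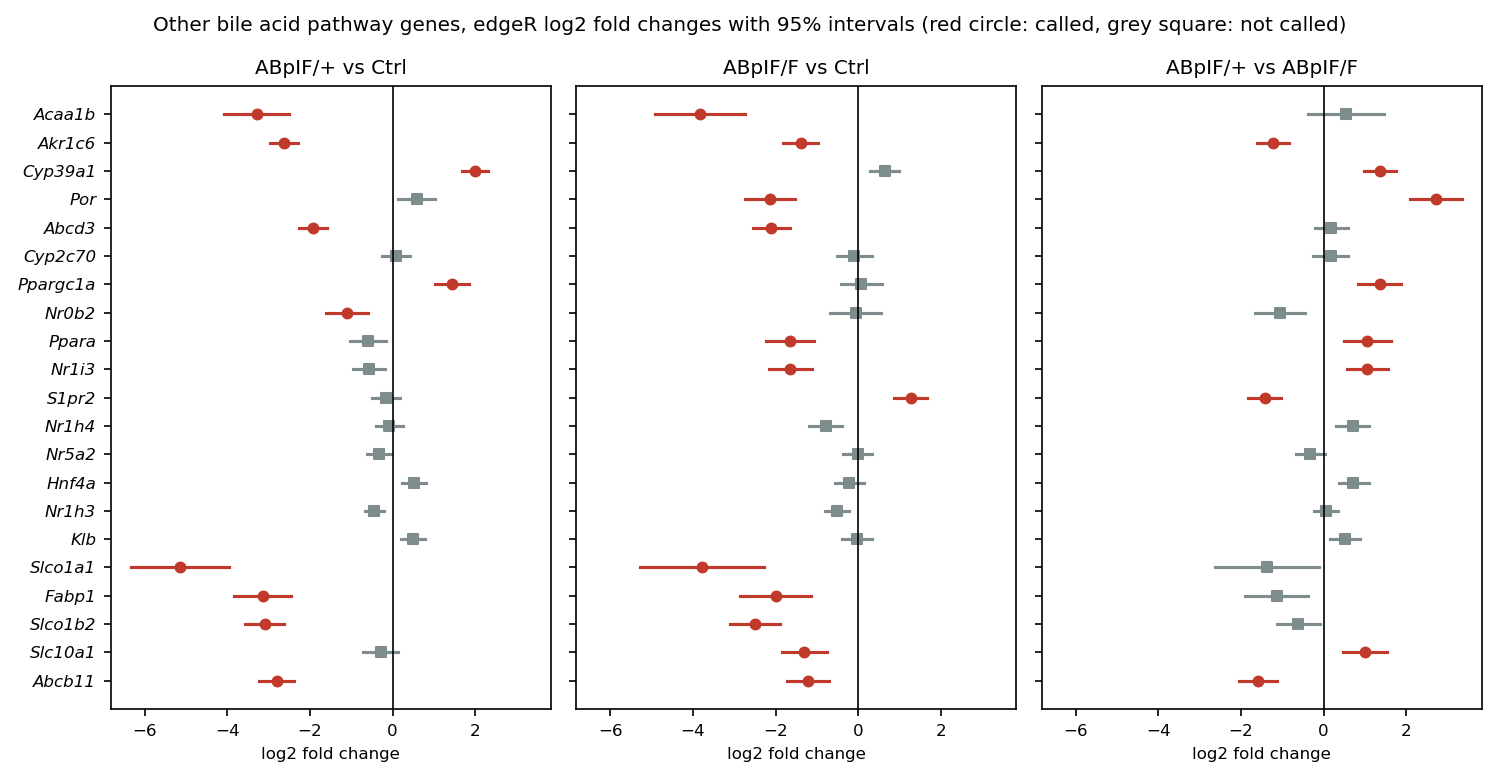
Log2 fold changes (x axis) with 95% intervals of the 21 other bile acid genes named by rule (y axis) in the 3 comparisons from edgeR's quasi-likelihood fit, red circles called and grey squares not called. Abcb11 and Akr1c6 are called lower and Por and Cyp39a1 higher in ABpIF/+ than in ABpIF/F.

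For each member the genes with the most similar profile were taken as those with the smallest root mean square difference of centred log2 CPM over the 15 mice, among 9568 genes averaging at least 5 CPM. The differences were small for the conjugation genes, 0.14 for Baat and Hibch and 0.15 for Slc27a5 and Lactb, and for Amacr and Aldh5a1 (0.11). Cyp27a1 was nearest to Aldh3a2 (0.27), Cyp7b1 to Ces1g (0.34), Hsd3b7 to Acat3 (0.28), Akr1d1 to Gsta3 (0.19) and Fgfr4 to Mcm7 (0.14). For Cyp7a1 (Upp2, 0.81) and Cyp8b1 (Acss3, 0.81) the smallest difference was larger. The measure was not scaled by the spread of a gene, so it runs larger for members that vary more, such as this pair. Its size therefore does not rank the members by how alike their nearest profiles are. Among the 3 nearest genes of each member, Hsd17b4 (0.17 from Baat), the peroxisomal bifunctional enzyme, was the one from the bile acid lists.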

How the data were processed

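Liver RNA of 15 mice was sequenced from poly(A) stranded libraries. Per the submitters' processing notes, the authors aligned reads to mm10 with HISAT2 2.21 and counted them per gene with featureCounts 2.0.8, and they deposited raw counts in a pair of tables that hold identical values. Strand setting and annotation of the counting are not given in the sources used here. The 23 samples listed name 15 mice, since 8 mice appear as 2 samples with 1 count column, which was counted once. Columns of the authors' own comparisons (fold changes and p-values) in 1 table were not used. All 27179 genes and 3 groups were fitted in edgeR 4.0.16 (R 4.3.3) with TMM factors and robust quasi-likelihood F-tests in the older form, with p-values adjusted by Benjamini-Hochberg over all genes. The SE was the fold change divided by the root of F. Log2 CPM used a prior count of 2, and levels per kb used GENCODE exon lengths on GRCm38. Alternatives used DESeq2 1.42.0, other scalings, filters, thresholds and covariates, and each mouse left out. The tests were tested on simulated data. Members and lists were chosen with earlier results of these data known. Beside the members, named genes were 9 set regulators and carriers and, per list, the 3 largest called changes against Ctrl in each mutant group with at least 5 CPM in a group.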

Additional observations from a re-analysis of the deposited data

Results flagged for a closer look

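Cyp7b1 in the ABpIF/+ mouse BG55 was 7.39 CPM, while the other 5 ABpIF/+ mice lay at or under 4.90 CPM, a gap that passed Dixon's 95% limit for 6 mice. Of 20 groups of 6 tested in this way (10 genes in Ctrl and ABpIF/+), chance alone passes about 1 in 20. BG55 also had the highest ABpIF/+ level of Cyp27a1 (446 CPM) and the lowest of Hsd3b7 (65.3 CPM). Without it the log2 fold change of Cyp7b1 in ABpIF/+ against Ctrl kept its call.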

How the results depend on the processing

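All 10 members kept their direction against Ctrl under every alternative run. Counting any fold at an adjusted p under 0.01 gave 9 members in place of 4 in ABpIF/+ against Ctrl, and library totals gave 6 (with Baat, and Cyp27a1 at -1.01). In ABpIF/F against Ctrl, 7 members became 4 at a log2 fold change of at least 2, 4 with the strain label as a term (Cyp27a1, Cyp7b1 and Baat of the 7, and Amacr, newly past the fold), 2 with mice of 1 strain label (Ctrl then the single mouse BG3, assumed to vary like the others) and 4 with the clock score. Between the mutant groups, 3 became 5 at an adjusted p under 0.05, 5 with DESeq2, 5 without robust estimation, 0 at the larger fold and 1 with the clock score. Of the other 67 genes, 19, 24 and 11 calls became 7, 7 and 1 at the larger fold, 24 became 15 with 1 strain label, and 24 and 11 became 9 and 1 with the clock score. Leaving out each mouse gave 3 to 5, 5 to 8 and 2 to 4 members, and 17 to 19, 16 to 26 and 8 to 13 of the other genes. Cyp7a1 in ABpIF/+ against Ctrl lay at the threshold without BG175 (adjusted p = 0.010) or BG88 (0.0103). With the strain label as a term, too, the Ctrl comparisons rest on BG3 as the single Ctrl mouse of the mutants' label. The cause of these shifts was not tested beyond what each setting changes.

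Signs turned for values that were not called, with 1 exception (Ppara between the mutant groups). Amacr between the mutant groups was -0.06 with library totals, and -0.10 to 0.27 over the mice left out. Fgfr4 there was 0.21 with the clock score. Cyp2c70 was -0.11 in ABpIF/+ with totals, 0.21 and 0.17 in ABpIF/F by strain label and 0.15 by clock score, and -0.01 and -0.12 between the mutant groups by totals and clock score. Nr5a2 was 0.04 and 0.04 in ABpIF/+ by strain label (as a term, then with mice of 1 label), and 0.36, 0.32 and, by clock score, 0.36 in ABpIF/F. Ppara was 0.07 and 0.07 in ABpIF/+ by strain label and -0.12 between the mutant groups by clock score. Klb in ABpIF/F was 0.46, 0.43 and 0.28 in the same order. With each mouse left out, Cyp2c70 was -0.04 to 0.16 in ABpIF/+, while in ABpIF/F Nr0b2 was -0.18 to 0.09, Nr5a2 -0.11 to 0.09, Klb -0.30 to 0.14 and Ppargc1a -0.04 to 0.18, and between the mutant groups Abcd3 was -0.03 to 0.55 and Nr1h3 -0.07 to 0.14. By clock score Ppargc1a in ABpIF/F was -0.05 and Abcd3 between the mutant groups -0.18, and Nr1h3 there was -0.11 with totals. No paired analysis was possible because the groups hold different mice and the replicate numbers given here only name mice within a group, so that a shared number pairs nothing.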
